A study of Mus musculus with 9 samples.

Results

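Creatine kinases move the phosphate bond of ATP to creatine and back, and myoglobin holds oxygen in muscle. Transcripts of 8 genes of this system were followed in the mouse heart: the creatine kinases Ckm, Ckmt2 and Ckb, the creatine synthesis enzymes Gatm and Gamt, the creatine transporter Slc6a8, the adenylate kinase Ak1 and the myoglobin gene Mb. They were found by matching the Ensembl gene IDs of the count files to these symbols in the GENCODE M21 annotation. All 8 symbols matched 1 ID each among 53465 IDs, and all 8 passed the filter on low counts, which left 13825 genes for testing.

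RNA was sequenced in 9 libraries, from hearts of NOD-SCID mice, a strain that lacks a working adaptive immune system. The sham group (3 libraries) had surgery without ligation, the ligation group (3 libraries) had a coronary artery tied off, and the group called ligation with cells (3 libraries) had the artery tied off and then received cells named FOXO3-GE-MPCs, a name the labels do not spell out. The labels place all 3 groups in the border zone of the infarct, the sham group included. Age, time after surgery and the organism of the implanted cells are not given in the labels, and no reads of implanted cells were set apart here. No group had ligation with another kind of cell, so that effects of implanting cells and of what sets these cells apart cannot be told apart. Groups followed the titles and the treatment field, since the source field of 2 libraries with cells names other FOXO members. The labels do not say that libraries came from separate animals, and p-values then measure the spread between these libraries, which may be technical.

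In heart muscle, the mitochondrial creatine kinase (Ckmt2) sits between the membranes of the mitochondrion and charges creatine with phosphate from newly made ATP, and the cytosolic muscle enzyme (Ckm) returns that phosphate to ADP at the myofibrils and the calcium pumps. Ckb is the cytosolic brain-type enzyme, which can pair with Ckm in a mixed dimer. Creatine is made from arginine, glycine and a methyl group by Gatm and then Gamt, mainly in kidney and liver, and heart muscle takes it up from blood through Slc6a8. Adenylate kinase (Ak1) turns a pair of ADP molecules into ATP and AMP, a parallel route of phosphate transfer, and myoglobin stores oxygen and eases its diffusion to mitochondria.

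Promoter windows are shown for the 3 creatine kinases, of which Ckmt2 differed between sham and ligation while Ckm and Ckb were not called, and for Gatm, the member with the widest fold change. Each is the 250 bases before the transcription start in the RefSeq promoter table (GRCm38.p6), which held an entry for 7 of the 8 members, all but Slc6a8. Capitals mark every match to a short motif on either strand: the E box CANNTG, bound by bHLH factors and present in 66.2% of 32841 windows of this length, the nuclear receptor half-site AGGTCA (14%), TATAAA (12.4%), the MEF2 site (2.92%) and the CArG box of SRF (1.47%). The windows lie at chr13:91876886-91877135 on the minus strand for Ckmt2, at chr7:19410844-19411093 on the plus strand for Ckm, at chr12:111672339-111672588 on the minus strand for Ckb and at chr2:122611278-122611527 on the minus strand for Gatm.
Ckmt2: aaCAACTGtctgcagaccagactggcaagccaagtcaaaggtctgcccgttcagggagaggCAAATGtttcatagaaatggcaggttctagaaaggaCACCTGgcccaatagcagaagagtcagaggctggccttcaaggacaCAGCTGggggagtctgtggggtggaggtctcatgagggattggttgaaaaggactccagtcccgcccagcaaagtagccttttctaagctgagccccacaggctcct
Ckm: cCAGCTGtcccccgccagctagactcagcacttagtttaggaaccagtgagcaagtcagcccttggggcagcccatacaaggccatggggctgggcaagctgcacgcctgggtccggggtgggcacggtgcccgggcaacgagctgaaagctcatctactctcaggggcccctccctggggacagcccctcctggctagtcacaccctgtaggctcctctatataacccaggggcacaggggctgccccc
Ckb: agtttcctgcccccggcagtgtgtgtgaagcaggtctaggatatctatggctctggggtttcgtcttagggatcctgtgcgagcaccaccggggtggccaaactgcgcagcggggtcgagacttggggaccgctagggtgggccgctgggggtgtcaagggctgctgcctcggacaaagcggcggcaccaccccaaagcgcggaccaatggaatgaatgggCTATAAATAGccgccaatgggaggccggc
Gatm: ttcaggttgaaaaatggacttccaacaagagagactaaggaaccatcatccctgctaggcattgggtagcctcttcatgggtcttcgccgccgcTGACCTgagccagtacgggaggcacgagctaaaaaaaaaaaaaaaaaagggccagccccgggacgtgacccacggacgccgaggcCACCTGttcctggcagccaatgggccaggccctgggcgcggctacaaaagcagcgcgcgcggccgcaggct
The window of Ckmt2 held 4 E boxes, that of Ckm 1, and that of Gatm 1 E box and 1 half-site. The window of Ckb held no E box, and its capitals are 1 MEF2 match that contains the TATAAA match. The Gamt window, not printed, held none of the 5 motifs. A match is a stretch of letters, and binding was not measured here. Ak1 has 4 starts and Mb 3 in the table, and counts per gene do not tell which start was used.

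Libraries held 4549268 to 7515052 counts in genes. Each of the 8 members was well above the limit of detection, from 33 to 166 counts per library for Gatm and 49 to 94 for Gamt up to 55137 to 88086 for Mb. Mitochondrially encoded genes took 19.1% to 19.9% of the counts in sham, 12.5% to 13.9% after ligation and 14.3% in each library with cells. Values below are TMM-scaled CPM, counts relative to library size. TMM lines up the bulk of genes between libraries. Scaling by library totals alone raised the median gene by 0.19 (log2) in ligation against sham and by 0.16 in ligation with cells against sham, and lowered it by 0.03 in ligation with cells against ligation. The share of called genes that were higher then went from 52.7% to 78.7%, from 51.2% to 73.1% and from 42.4% to 32.0%. Offsets for GC content and length moved the last of these to 56.4%. Fold changes are given as log2 differences with their standard error (SE), and a gene was called at a Benjamini-Hochberg adjusted p under 0.05 over all 13825 genes in the edgeR quasi-likelihood test.

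After ligation, 5 of the 8 members were called against sham: the creatine synthesis enzyme Gatm and the creatine transporter Slc6a8 rose, and Ckmt2, Ak1 and Mb fell. Of all genes tested, 38.2% were called in this comparison, 20.1% higher and 18.0% lower, so that a large part of the transcriptome differed too. The median log2 difference of the 8 members was -0.15, beside 0.01 over all genes tested. Against ligation alone, ligation with cells had 2 called members, Ak1 higher and Gatm lower, where 9.87% of all genes were called (4.19% higher and 5.69% lower), and the members' median was 0.05. Ligation with cells against sham had 5 called members, Gatm and Slc6a8 higher and Ckmt2, Ak1 and Mb lower, with 40.9% of all genes called (21.0% higher and 20.0% lower). With library totals Ckm, Ckb, Gatm and Slc6a8 were called higher after ligation and Ckmt2 and Ak1 lower, and with cells against sham the same 4 were called higher and Ckmt2 lower. With offsets for GC content and length, Ckm, Ak1 and Mb were called higher and Gatm lower in ligation with cells against ligation. The CPM ranges of the groups did not overlap for 5 of 8 members in each comparison, beside 47.6% of all genes after ligation, 27.2% with cells against ligation and 49.8% with cells against sham. The 3 comparisons share libraries and are not independent of each other.

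**Figure D1:**
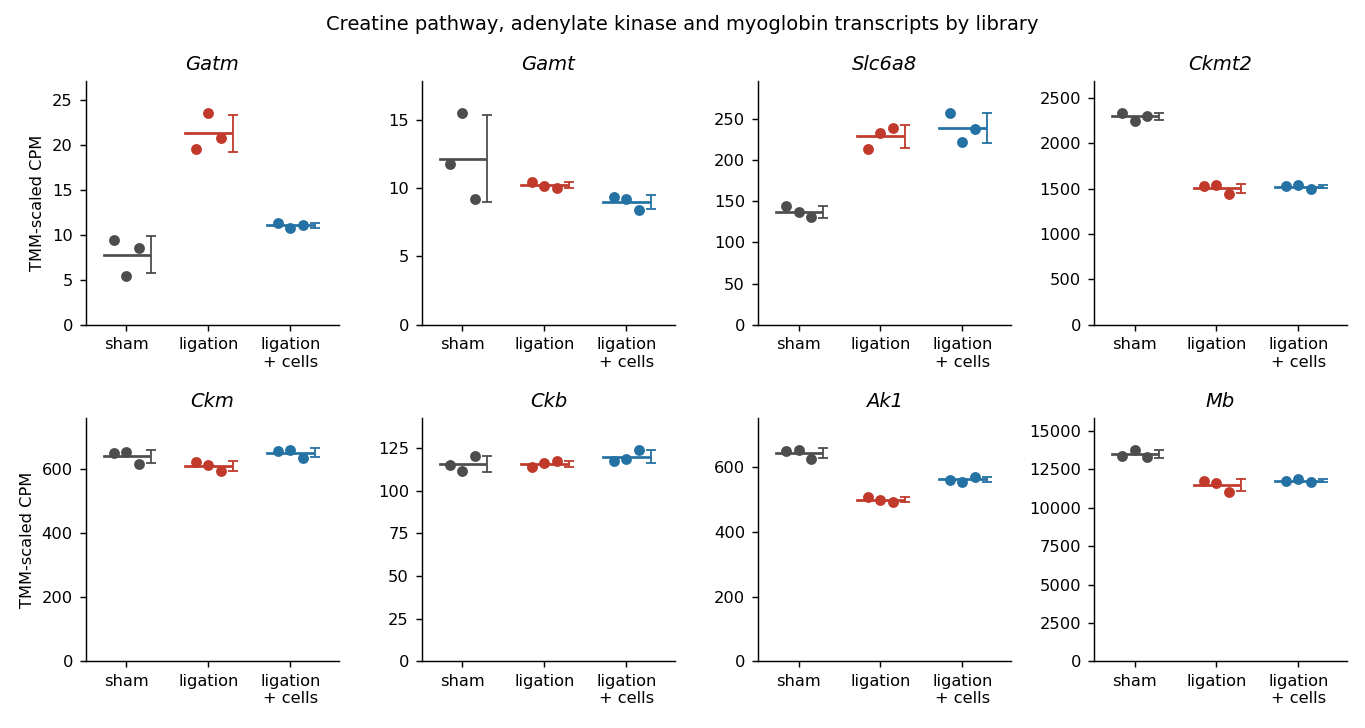
Level of each member in each of the 9 libraries, in TMM-scaled CPM on axes that start at 0. Points are libraries, horizontal lines are group means and bars are 1 SD (n = 3 per group). Gatm and Slc6a8 are higher in every ligated library than in sham, Ckmt2, Ak1 and Mb are lower, and Ckm and Ckb lie close together in all 3 groups.

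Gatm (arginine:glycine amidinotransferase, ENSMUSG00000027199, chr2:122594467-122611303, minus strand, GRCm38) makes guanidinoacetate, the precursor of creatine. It was counted at 9.43, 5.44 and 8.57 CPM in the sham libraries, at 19.6, 23.6 and 20.8 CPM after ligation, and at 11.3, 10.8 and 11.1 CPM after ligation with cells. The 3 groups did not overlap: ligation was highest, ligation with cells came next and sham was lowest. Gatm rose after ligation from 7.81 ± 2.10 to 21.3 ± 2.05 CPM (SD, n = 3), a ratio of 2.74 and a log2 difference of 1.46 (SE 0.17, edgeR adjusted p = 5.57e-07). In ligation with cells it was 11.1 ± 0.26 CPM, 0.518 times the level in ligation (log2 difference -0.95, SE 0.15, edgeR adjusted p = 2.47e-04). Against sham that level was still higher by 0.51 (SE 0.18, edgeR adjusted p = 0.0287), a call that was lost in DESeq2 (0.51, adjusted p = 0.0819) and, in edgeR, without sham replicate 2 (0.30, adjusted p = 0.181), without cell replicate 1 (0.49, adjusted p = 0.0649) or without cell replicate 3 (0.51, adjusted p = 0.0553).

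Markers of other cell types moved in some of the same comparisons as Gatm. Of 7 macrophage markers, 6 were higher after ligation (all but Mrc1, at 0.16) and all 7 were lower in ligation with cells than in ligation. With cells against sham, where Gatm was higher, 4 of these 7 were called lower and none higher. Their summed level was 434 to 469 CPM in sham, 841 to 880 CPM after ligation and 350.0 to 365 CPM in ligation with cells, and none of the 7 was at 0. Of 6 adipocyte markers, 5 were tested, all 5 were called higher in both ligated groups against sham and none was called between the ligated groups. Their sum was 11 to 15.7 CPM in sham, 197 to 214 CPM after ligation and 186 to 218 CPM with cells, and Ucp1, of brown fat, had at most 1 count in any library. The part of these cells in the Gatm result was not tested, and in bulk tissue more or fewer cells of a type and more or less RNA per cell cannot be told apart.

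Gamt (guanidinoacetate methyltransferase, ENSMUSG00000020150, chr10:80258151-80261012, minus strand) adds the methyl group that completes creatine. Its libraries stood at 11.8, 15.5 and 9.21 CPM in sham, at 10.4, 10.1 and 10 CPM after ligation and at 9.36, 9.15 and 8.36 CPM in ligation with cells. The sham libraries covered the whole range of the ligation group, 2 of the 3 libraries with cells lay below all of sham, and every library with cells lay below every library with ligation. Gamt was not called in any comparison: the log2 difference was -0.25 (SE 0.18) for ligation against sham, -0.18 (SE 0.18) for ligation with cells against ligation and -0.44 (SE 0.18, edgeR adjusted p = 0.058) for ligation with cells against sham. The last passed the threshold without sham replicate 3 (-0.61, edgeR adjusted p = 0.0112) and with mitochondrially encoded genes removed (-0.45, edgeR adjusted p = 0.0485), and it was -0.22 without sham replicate 2 (edgeR adjusted p = 0.38). Ligation against sham gave -0.04 without sham replicate 2 and -0.43 without sham replicate 3 (edgeR adjusted p = 0.9 and 0.0724). Gatm per 100 counts of Gamt was thus 69.5 ± 30.5 in sham, 209 ± 22.6 after ligation and 124 ± 7.69 with cells (SD, n = 3), a ratio of counts that the scaling of libraries does not touch.

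Slc6a8 (ENSMUSG00000019558, chrX:73673150-73682502, plus strand) imports creatine together with sodium and chloride. Libraries stood at 144, 136 and 130.3 CPM in sham, at 213, 233 and 239 CPM after ligation and at 257, 221 and 238 CPM with cells. Every ligated library, with or without cells, lay above every sham library, and the ligated groups overlapped. Slc6a8 rose by 0.74 after ligation (SE 0.06, ratio 1.67, edgeR adjusted p = 9.71e-09) and was higher than sham by 0.80 with cells (SE 0.06, ratio 1.74, edgeR adjusted p = 2.37e-09). Ligation with cells differed from ligation by 0.06, with a 95% interval from -0.07 to 0.19, and was not called (edgeR adjusted p = 0.616). Fibroblast markers were higher in the same comparisons, with 6 of 7 called higher and Pdgfra lower after ligation, and 6 of 7 called higher with cells against sham. Their sum was 2278 to 2337 CPM in sham, 4259 to 4357 CPM after ligation and 3976 to 4080 CPM with cells, with none at 0, and their part in the Slc6a8 result was not tested.

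Ckmt2 (ENSMUSG00000021622, chr13:91853387-91876885, minus strand), the mitochondrial kinase of striated muscle, was the most abundant creatine kinase in every library. Levels of Ckmt2 were 2338, 2253 and 2303 CPM in sham, 1528, 1539 and 1446 CPM after ligation and 1529, 1543 and 1501 CPM with cells. All 6 ligated libraries lay below all sham libraries, and the ligated groups overlapped. Ckmt2 fell by 0.61 after ligation (SE 0.04, ratio 0.655, edgeR adjusted p = 1.86e-11) and was lower than sham by 0.59 with cells (log2 difference -0.59, SE 0.03, edgeR adjusted p = 2.69e-11). Between the ligated groups the log2 difference was 0.02, with a 95% interval from -0.05 to 0.09, and it turned to -0.01 both with library totals and without ligation replicate 3. The calls against sham held under library totals, at -0.42 and -0.43. The antisense gene 1700119I11Rik overlaps 5.65% of the exonic bases of Ckmt2 and had 13 to 36 counts per library, against 7170 to 14510 for Ckmt2. These counts do not bound the effect of the overlap, since the strand setting is not known.

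Ckm (ENSMUSG00000030399, chr7:19404776-19422841, plus strand), the muscle-type cytosolic kinase, lay between 592.8 and 661 CPM in all 9 libraries. It stood at 650.2, 652 and 615 CPM in sham, at 623, 612 and 593 CPM after ligation and at 657, 661 and 635 CPM with cells. The sham and ligation libraries overlapped, as did sham and cells, and the libraries with cells lay above all libraries with ligation. No comparison was called in edgeR: the log2 difference was -0.07 for ligation against sham (SE 0.04, adjusted p = 0.206), 0.10 for ligation with cells against ligation (SE 0.04, adjusted p = 0.169) and 0.03 for ligation with cells against sham (SE 0.04, adjusted p = 0.647). Which side of sham Ckm took after ligation depended on scaling, at 0.12 with library totals (edgeR adjusted p = 0.023) and at -0.12 with offsets for GC content and length (edgeR adjusted p = 0.0167). With those offsets, ligation with cells was above ligation by 0.17 (edgeR adjusted p = 0.0046), and with library totals it was above sham by 0.18 (edgeR adjusted p = 8.02e-04). An antisense gene on the other strand, A930016O22Rik, overlaps 15.5% of the exonic bases of Ckm and had 2 to 20 counts per library, against 2922 to 4765 for Ckm. As for Ckmt2, these counts do not bound the effect of the overlap.

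Ckb (ENSMUSG00000001270, chr12:111669361-111672338, minus strand), the brain-type cytosolic kinase, was not called in any comparison with TMM scaling. It stood at 115, 111 and 120.3 CPM in sham, at 114, 116 and 117 CPM after ligation and at 117, 119 and 124 CPM with cells. Sham overlapped both ligated groups, and the libraries with cells lay above those of ligation by so little that the nearest of each both round to 117 CPM. The log2 difference of ligation against sham was 0.0015 (SE 0.06), with a 95% interval from -0.12 to 0.12, and it was below 0 in 10 of 20 alternative analyses. With library totals Ckb was called higher against sham, by 0.19 after ligation (edgeR adjusted p = 0.0129) and by 0.21 with cells (edgeR adjusted p = 0.00569). Of all stretches of 31 bases in Ckb, 17.5% also occur in pseudogenes, of which Gm12892 had 10 to 24 counts per library and the other 2 had none.

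The make-up of the creatine kinase transcripts was compared within each library, where scaling plays no part. Counts were divided by exonic length and expressed as a share of the sum over Ckm, Ckb, Ckmt2 and Ckmt1, the mitochondrial kinase of tissues other than striated muscle. Ckmt2 made up 85.6 ± 0.37% in sham, 80.0 ± 0.27% after ligation and 79.3 ± 0.01% with cells (SD, n = 3). Ckm made up 12.2 ± 0.44%, 16.5 ± 0.21% and 17.3 ± 0.14% in the same order. The share of Ckb was 2.16%, 2.16% and 2.31% in the sham libraries, 3.06%, 3.10% and 3.31% after ligation and 3.12%, 3.13% and 3.36% with cells. Both ligated groups lay above sham in the Ckb share and overlapped each other. The sum behind the share is mostly Ckmt2, which fell, and Ckb per 100 counts of Ckm was 18.1 ± 1.30 in sham, 19 ± 0.73 after ligation and 18.4 ± 0.95 with cells, a difference within the spread. The difference from sham was 0.95 percentage points after ligation and 0.996 with cells (exact two-sided permutation test, p = 0.1 each and 0.15 after Benjamini-Hochberg adjustment over 3 comparisons). With 3 libraries against 3 that p of 0.1 is the smallest the test can give. Between the ligated groups the difference was 0.05 points (exact permutation p = 0.5), and without cell replicate 3 or ligation replicate 1 it turned to -0.03 or -0.0022. Lengths of principal transcripts, which leave out retained introns of Ckb, gave Ckb shares of 4.22%, 5.96% and 6.05%, with both ligated groups again above sham.

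**Figure D2:**
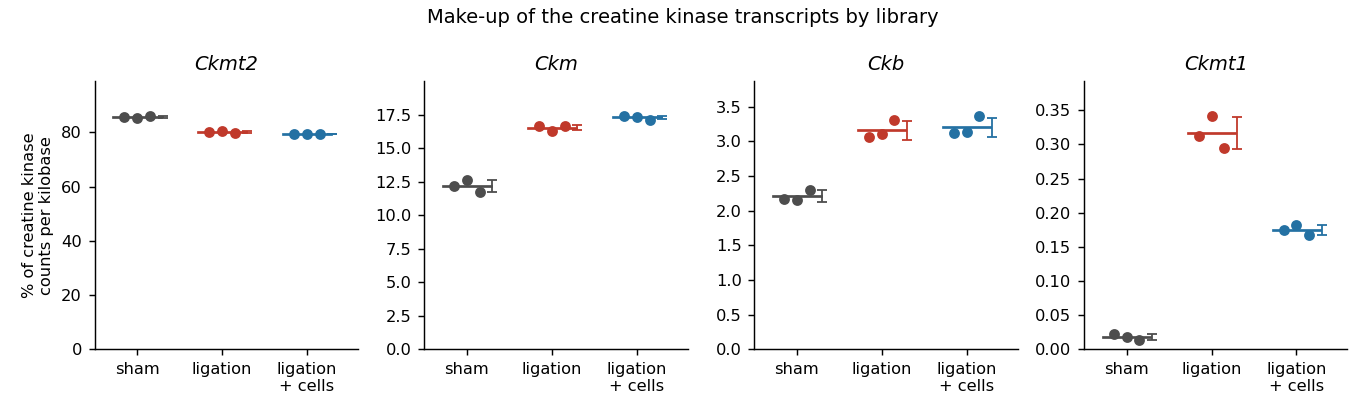
Share of each creatine kinase gene in the summed creatine kinase counts per kilobase of exon, in percent, for each of the 9 libraries, each panel with its own axis from 0. Points are libraries, lines are group means and bars are 1 SD (n = 3). The Ckmt2 share is near 86% in sham and near 80% in both ligated groups, while the shares of Ckm, Ckb and Ckmt1 are higher after ligation than in sham, Ckmt1 with an intermediate level in the group with cells.

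Ckmt1 was below all members in sham and was called in all 3 comparisons. Libraries held Ckmt1 at 1.07, 0.82 and 0.64 CPM in sham, from 4 to 6 reads per library, at 10, 11 and 9 CPM after ligation and at 5.67, 5.96 and 5.33 CPM with cells. The 3 groups did not overlap. Ckmt1 rose by 3.55 after ligation (SE 0.29, edgeR adjusted p = 4.64e-09) and was lower with cells than with ligation alone by 0.82 (log2 difference -0.82, SE 0.20, edgeR adjusted p = 0.0111). Its level was 0.04 counts per 100 of Ckmt2 in sham, 0.66 after ligation and 0.37 with cells, so that it stayed a small part of the mitochondrial kinase transcripts. As for Gatm, the ligation group was highest and sham lowest, and the part of the macrophage and adipocyte markers in this result was not tested.

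Ak1 (ENSMUSG00000026817, chr2:32621758-32635058, plus strand), the main cytosolic adenylate kinase of muscle, separated all 3 groups. Levels of Ak1 were 650.7, 654 and 625 CPM in sham, 508, 498 and 491 CPM after ligation and 561, 555 and 570.3 CPM with cells. Sham was highest, ligation lowest, and ligation with cells lay between them without overlap. Ak1 fell by 0.37 after ligation (SE 0.04, ratio 0.776, edgeR adjusted p = 4.3e-07). In ligation with cells it was higher than in ligation by 0.17 (SE 0.04, ratio 1.13, edgeR adjusted p = 0.00886) and lower than in sham by 0.19 (log2 difference -0.19, SE 0.04, edgeR adjusted p = 6.64e-04). With library totals the difference from sham was -0.18 after ligation (edgeR adjusted p = 0.00109) and -0.04 in ligation with cells (edgeR adjusted p = 0.5), whereas the call between the ligated groups held in all 20 alternative analyses, at 0.14 to 0.25.

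Mb (ENSMUSG00000018893, chr15:77015487-77050670, minus strand), the oxygen store of muscle, had the highest level of the 8 members. It was counted at 13371, 13781 and 13277 CPM in sham, at 11748, 11594 and 11011 CPM after ligation and at 11738, 11873 and 11665 CPM with cells. All ligated libraries lay below all sham libraries, and the ligated groups overlapped. Mb fell by 0.24 after ligation (log2 difference -0.24, SE 0.03, ratio 0.850, edgeR adjusted p = 3.28e-07) and was lower than sham by 0.20 with cells (log2 difference -0.20, SE 0.03, edgeR adjusted p = 3.45e-06), but with library totals these were -0.05 (edgeR adjusted p = 0.0884) and -0.04 (edgeR adjusted p = 0.181), neither of them called. With offsets for GC content and length the difference between ligation with cells and sham was also -0.04 (edgeR adjusted p = 0.115), and ligation with cells was above ligation by 0.12 (edgeR adjusted p = 1.43e-04). Without the offsets that last difference was 0.04, with a 95% interval from -0.02 to 0.09. The exons of Mb overlap other genes on the opposite strand over 31.9% of their bases, mostly the antisense gene Gm49540, which was not analysed here, and in a smaller part Apol6, which had 11 to 38 counts per library.

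Markers of heart muscle and of mitochondria were lower in the comparisons in which Ckmt2, Ak1 and Mb fell. Of 12 cardiomyocyte markers, 8 were lower and 2 higher after ligation, with a median log2 difference of -0.23. With cells against sham, 8 were lower and 1 higher, with a median of -0.37. Their summed level was 62052 to 63785 CPM in sham, 47251 to 49134 CPM after ligation and 46483 to 47584 CPM with cells, and none was at 0. Of 12 nuclear genes for mitochondrial respiration, 10 were lower after ligation (median -0.49) and 9 with cells against sham (median -0.45), and none was higher. With library totals, 6 cardiomyocyte markers were called lower and 5 higher after ligation (median -0.05), and 9 mitochondrial genes lower and 1 higher (median -0.30). Among the genes of both lists called with TMM, the signs of Actc1, Ttn and Sdha turned there, and Ttn and Sdha were no longer called. With cells against sham, library totals gave 7 cardiomyocyte markers lower and 4 higher, and 9 mitochondrial genes lower and 2 higher. With offsets for GC content and length, 9 cardiomyocyte markers were lower and 1 higher after ligation (median -0.43), and 12 mitochondrial genes were lower (median -0.48). With TMM, the log2 difference of Ckmt2 after ligation lay beyond both medians, that of Ak1 between them and that of Mb near the cardiomyocyte median. Endothelial markers were lower too (6 of 6 in both ligated groups against sham, sum 1868 to 1973 CPM in sham, 1242 to 1310 CPM after ligation and 1369 to 1409 CPM with cells). The part of these shifts in the member results was not tested.

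Atrial markers differed between the groups as well, among them Nppa, also a stress gene of the ventricle. After ligation Myl7, Sln and Myl4 were called lower than in sham and Nppa higher (from 107 to 895 CPM), and with cells all 4 were called higher than in sham. Sln lost its lower call with library totals and with offsets for GC content and length. The sum of the 4 was 474 to 564 CPM in sham, 841 to 1608 CPM after ligation and 1569 to 2178 CPM with cells, with Myl7, Sln and Myl4 called higher in ligation with cells than in ligation, and their part in the member results was not tested. The sum of 12 fast skeletal muscle markers, a tissue rich in Ckm, was 86.7 to 96.4 CPM in sham, 170.0 to 188 CPM after ligation and 198 to 210.0 CPM with cells. Tnnc2 was at 0 in all 9 libraries, Myh4 at 0 in all but the 3 ligation libraries, and most of the sum came from Myl1 and Mybpc2. Between the ligated groups these 2 were called higher with cells and Pvalb, Tnnt3 and Tnni2 lower, with a median of -1.30 over the 6 genes tested. Their part in the Ckm values was not tested.

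**Figure D3:**
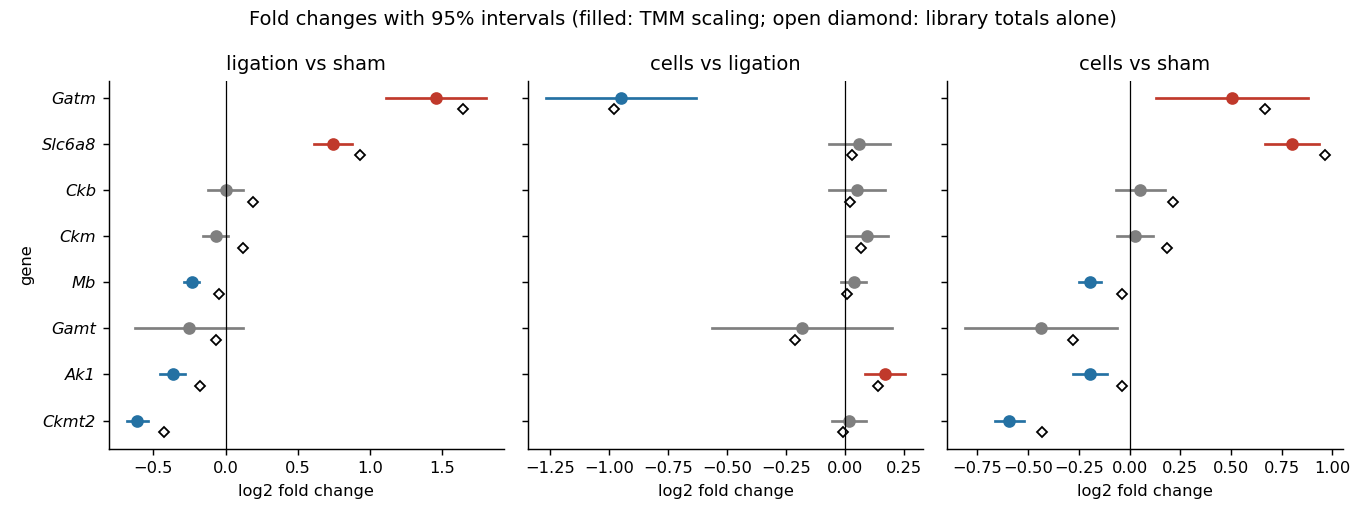
Log2 fold change of each member in the 3 comparisons. Filled circles are the edgeR values with TMM scaling and their 95% intervals (red called higher, blue called lower, grey not called at an adjusted p of 0.05), and open diamonds are the values with library totals alone. The diamonds lie to the right of the circles in both comparisons with sham, where Mb moves close to 0, while the Ckmt2, Gatm and Slc6a8 values keep their sides.

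Levels of different genes were compared per kilobase of exon. In sham the order was Mb (9032 CPM per kilobase), Ckmt2 (1547), Ak1 (248), Ckm (219), Ckb (39.9), Slc6a8 (26.3), Gamt (8.41) and Gatm (2.6). Neighbours in this order lay further apart than their SD in each case, with SDs of 6.28 for Ak1, 7.11 for Ckm, 2.19 for Gamt and 0.70 for Gatm. After ligation Ckm (209 ± 5.20) stood above Ak1 (192 ± 3.24), and Slc6a8 (43.9 ± 2.59) stood above Ckb (39.9 ± 0.57). Gatm (7.10 ± 0.68) and Gamt (7.06 ± 0.16) then did not differ beyond their spread. With cells Ckm (223 ± 4.76) and Ak1 (217 ± 2.94) differed by less than the sum of their SDs, and Gamt (6.20 ± 0.37) stood above Gatm (3.69 ± 0.09). Several of these orders after ligation depended on the length used. With principal transcripts Ckb was at 78.5 and Slc6a8 at 68.9 CPM per kilobase, Ak1 (239 ± 4.03) stood above Ckm (222 ± 5.52), and Gamt (10.3 ± 0.23) stood above Gatm (8.92 ± 0.86). With cells, principal lengths likewise put Ak1 (269.6 ± 3.65) above Ckm (237 ± 5.06).

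Partners of the shuttle were read from a list of 21 genes for phosphate transfer outside the members, of which 20 were tested and Ampd1 was too low. After ligation 7 were higher and 5 lower, with a median log2 difference of -0.03, and with cells against sham 8 were higher and 4 lower, with a median of 0.01. With library totals 9 were higher and 4 lower after ligation (median 0.16), where Slc25a5, lower with TMM, turned its sign and lost its call, and 10 were higher and 2 lower with cells against sham (median 0.17). Between the ligated groups 2 were higher (Adk and Atp2a2) and 1 lower (Ckmt1), with a median of 0.07. The adenine nucleotide translocator Slc25a4, which carries ATP to the space where Ckmt2 works, was at 6903 ± 164 CPM in sham, 3885 ± 176 CPM after ligation and 4021 ± 193 CPM with cells (SD, n = 3). It fell by 0.83 after ligation (SE 0.04, edgeR adjusted p = 3.44e-13), beside -0.61 for Ckmt2, and Ckmt2 per 100 counts of Slc25a4 was 33.3 ± 0.18 in sham, 38.7 ± 0.94 after ligation and 38.0 ± 1.39 with cells. The outer membrane channels Vdac2 and Vdac3, through which creatine enters and phosphocreatine leaves the mitochondrion, were lower in both ligated groups than in sham. Vdac3 lost its call with cells against sham under library totals, and Vdac1 was not called in any comparison.

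At the places where the shuttle delivers its phosphate, genes went different ways. The calcium pump gene Atp2a2 was at 6739, 6556 and 6818 CPM in sham, at 5349, 5160 and 4991 CPM after ligation and at 5837, 5833 and 5764 CPM with cells. As for Ak1, the libraries with cells lay between the other groups without overlap. Atp2a2 fell by 0.38 after ligation (SE 0.03, edgeR adjusted p = 1.67e-09) and was higher with cells than in ligation by 0.17 (SE 0.03, edgeR adjusted p = 4.19e-04). Its lower call with cells against sham was lost with library totals. The M-band gene Myom2, whose protein belongs to the structure that holds muscle creatine kinase in the sarcomere, rose by 0.57 after ligation (SE 0.04, edgeR adjusted p = 2.33e-10) and was higher than sham by 0.50 with cells (SE 0.04, edgeR adjusted p = 1.49e-09). Myom1, of the same band, was also called higher in both ligated groups against sham, by 0.23 and 0.18, the latter call lost with offsets for GC content and length.

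Among the other adenylate kinases, the mitochondrial Ak4 and the low-level Ak5 were called higher in both ligated groups against sham, opposite to Ak1, and Ak3 and Ak6 were not called in any comparison. Ak4 was at 32.4 ± 1.22 CPM in sham, 48.6 ± 6.52 CPM after ligation and 45.9 ± 1.68 CPM with cells (SD, n = 3). Subunits of AMPK, the kinase that senses the AMP made by adenylate kinase, were called higher after ligation for Prkaa2 (0.29) and Prkag2 (0.58), and with cells against sham for Prkaa1 (0.30), Prkaa2 (0.46) and Prkag2 (0.60). With offsets for GC content and length the calls of Prkaa2 after ligation and of Prkaa1 were lost. Adk, which recycles adenosine to AMP, was called in no comparison with sham and was higher with cells than with ligation by 0.20 (SE 0.06, edgeR adjusted p = 0.0426), a call lost with library totals.

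Genes that supply creatine synthesis formed a list of 8, of which 7 were tested. After ligation Mtr and Arg1 were called higher and Ahcy and Oat lower. With cells against sham Mat2a, Mtr and Arg1 were called higher and Ahcy and Oat lower. Arg1 had few reads, with 0 counts in each sham library, 15, 24 and 33 after ligation and 7, 10 and 10 with cells. It was lower with cells than in ligation (log2 difference -1.50, SE 0.36, edgeR adjusted p = 0.0115). With library totals the call of Oat after ligation was lost, as was that of Ahcy with cells against sham, and the sign of Oat with cells against sham turned. Mtr lost its call in both comparisons with sham under offsets for GC content and length. Mat2a, which makes the methyl donor used by Gamt, was not called between sham (151 ± 3.79 CPM) and ligation (148 ± 9.85 CPM) and was higher with cells (184 ± 13.4 CPM, log2 difference from ligation 0.32, SE 0.06, edgeR adjusted p = 0.00178).

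The other globins were read beside Mb. Of 6 genes 5 were tested, and after ligation 4 were higher and 1 lower. Cygb, the globin of fibroblasts and other stromal cells, was at 141 ± 4.95 CPM in sham, 221 ± 5.27 CPM after ligation and 198 ± 7.37 CPM with cells (SD, n = 3), higher after ligation by 0.65 (SE 0.05, edgeR adjusted p = 5.52e-09). The haemoglobin gene Hbb-bs, carried by red blood cells, was at 347 ± 12.4, 553 ± 11.3 and 254 ± 2.02 CPM in the same order, higher after ligation by 0.67 (SE 0.04, edgeR adjusted p = 1.94e-10) and lower with cells than in ligation by 1.12 (log2 difference -1.12, SE 0.05, edgeR adjusted p = 6.04e-13). Hba-a1 and Hba-a2 are near-identical copies, so that their separate counts (Hba-a2 under 11 CPM in every library) are uncertain. Summed over the list, the other globins were at 995 to 1052 CPM in sham, 1690.0 to 1796 CPM after ligation and 853 to 874 CPM with cells, while the mean Mb levels of the ligated groups differed by less than the SD of the ligation group.

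A list of 10 transcription factors and coactivators of muscle and mitochondrial genes was read beside the members. After ligation Srf, Tead1, Gata4 and Ppara were higher, and Ppargc1a and Esrra, regulators of mitochondrial genes, were lower. Esrra was at 174 ± 13.5 CPM in sham, 142 ± 5.38 CPM after ligation and 157 ± 6.67 CPM with cells (SD, n = 3), with a log2 difference of -0.29 after ligation (SE 0.06, edgeR adjusted p = 0.001). The lower calls of Ppargc1a and Esrra were lost with library totals, and the higher calls of Gata4 and Ppara with offsets for GC content and length. With cells against ligation Srf, Gata4 and Esrrg were called higher and none lower, where Esrrg lost its call with library totals. Mef2a and Mef2d, of the family that binds the MEF2 site matched in the Ckb window, were not called with TMM scaling, but with library totals both were called higher after ligation (0.17 and 0.27) and with cells against sham (0.20 and 0.25). With cells against sham, 6 of the 10 were called higher with TMM scaling and none lower: Srf, Tead1, Gata4, Esrrg, Ppara and Mef2c. Their log2 differences included 0.59 for Srf, 0.57 for Tead1 and 0.52 for Gata4. That of Mef2c was 0.25 (SE 0.07, edgeR adjusted p = 0.00535), a call lost with offsets for GC content and length (0.11, edgeR adjusted p = 0.175). With those offsets 5 of the 10 were called higher and 1 lower in this comparison. With library totals 8 of the 10 were called higher after ligation.

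**Figure D4:**
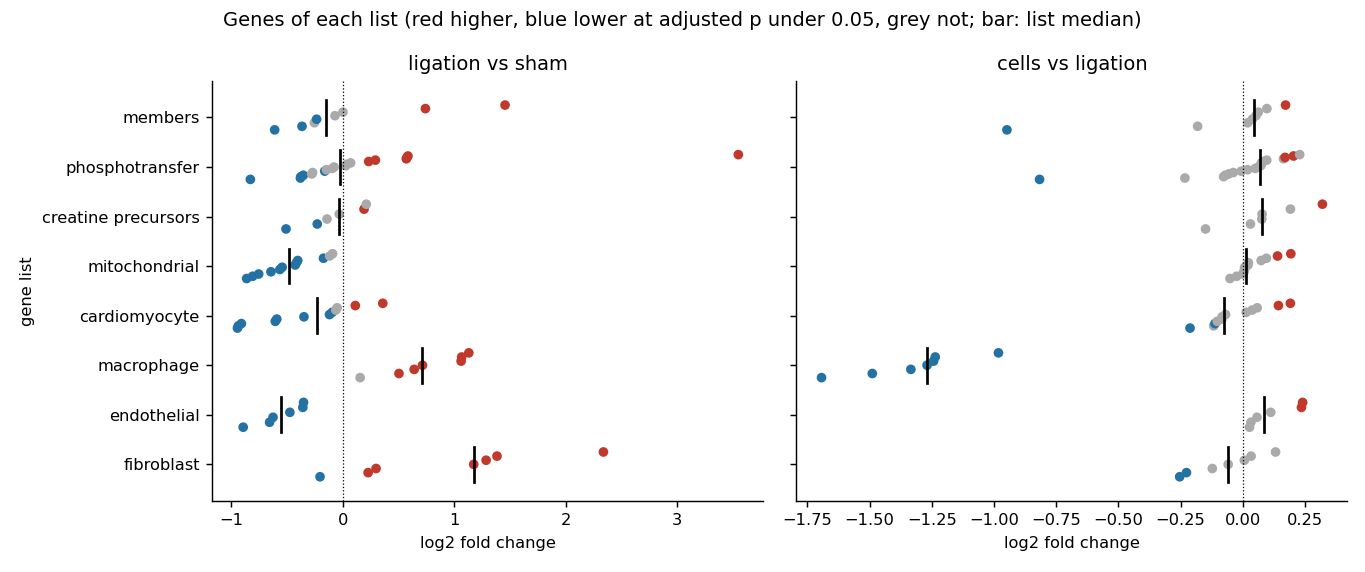
Log2 fold change of the tested genes of 8 lists in ligation against sham and in ligation with cells against ligation, with TMM scaling. Arg1 and Ak5 are not drawn as points but count in the list medians. Points are genes (red called higher, blue called lower, grey not called in edgeR) and vertical bars are list medians. The mitochondrial and endothelial lists lie to the left of 0 after ligation, macrophage genes lie to the right after ligation and to the left with cells, and the members spread over both sides.

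Genes with the most similar course over the 9 libraries were ranked for each member by the root mean square difference of centred log2 CPM, among 9412 genes with a mean of at least 10 CPM. For Ckmt2 these were Atp5j2 (0.03), Kif26a (0.04) and Idh2 (0.04), for Mb Atp5a1 (0.02), Atxn1 (0.03) and Sdhc (0.03), and for Ak1 Ablim1 (0.03), Hadha (0.03) and Atp2a2 (0.04). The nearest genes of Slc6a8 were Itga5 (0.06), Pde4dip (0.06) and Znrf2 (0.07). For Gatm, Pla2g15 (0.22), Serpina3h (0.23) and Ces2g (0.26) came first, against a spread of Gatm itself of 0.63 (SD over libraries). For Ckm (Nap1l4, Csrp3 and Immt), Ckb (Ak3, Pcbp4 and Emc7) and Gamt (Tmem268, Lmbr1l and Dcbld1) the first gene differed by 0.03, 0.03 and 0.09, against a spread of the member itself of 0.05, 0.04 and 0.24. The measure describes these libraries, which share the groups and the scaling.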

How the data were processed

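Libraries were made from total RNA extracted with TRIzol using the NEBNext Ultra RNA kit, per the labels' protocols. Each library has a file of whole-number read counts per gene as deposited, and the authors record no normalization of them. The reference build is mm10, per the submitters' processing notes. The aligner, counter, strand setting and annotation release are not given in the sources used here. Each file ends in 5 lines that name no gene. Of these, 3 are 0 throughout, and the others hold 4.14% to 4.91% (no feature) and 8.09% to 8.72% (ambiguous) of the reads listed. They were left out of library totals and tests. With the strand setting unknown, reads in exons of Ckm, Ckmt2 and Mb that overlap other genes may be among the ambiguous ones. Levels per kilobase of exon divide by the full exonic length, such bases included.

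Symbols and loci came from GENCODE M21, which matched 53274 of 53465 IDs. Counts were scaled by TMM, filtered with filterByExpr and tested with edgeR 4.0.16 (glmQLFit and glmQLFTest, R 4.3.3) in 1 fit of all 9 libraries with a mean per group, which was tested on simulated data. Standard errors were derived from the fold change and its F statistic, and 95% intervals from those. A count of 3 reads is worth 0.375 to 0.639 CPM in these libraries, and this limit covers counting error only. The Ckb share was compared by an exact permutation test. Genes named were all members, up to 3 called genes of a list with the smallest adjusted p, any gene needed to describe a small count, and the 3 genes most like each member. Ckmt1 after ligation, Ak4, Ak5, the AMPK subunits, the Vdac genes, Myom1, Mef2 genes and Myh4 fall outside this rule and were named after their values were seen. Members and lists were chosen with earlier results of these data known. Some genes of the lists are not reported here.

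Alternatives were DESeq2 size factors, library totals, other filters, the DESeq2 1.42.0 Wald test, fits of 2 groups only, removal of mitochondrially encoded genes, offsets for GC content and length, the replicate number as a block, other gene lengths for the Ckb share and each library left out. Counts summed over libraries with a shared header stem (sham 1 and 2, ligation 2 and 3) and principal transcript lengths were added after seeing the data.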

Additional observations from a re-analysis of the deposited data

How the results depend on the processing

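Depth limits Gatm and Gamt, with under 170 counts per library, and 3 libraries a group limit every test. Over all alternatives 4131 to 6312 genes were called in ligation against sham, 935 to 1533 in ligation with cells against ligation and 4411 to 6310 in ligation with cells against sham. Leaving out each library in turn gave 4482 to 5459, 951 to 1398 and 5055 to 5746 genes, and 5, 2 and 4 to 6 members. With offsets for GC content and length, 4 members were called in ligation with cells against ligation, with or without the replicate block, and the share of called genes that were higher went from 42.4% to 56.4%. The Ckb share differed from sham by 1.38 points after ligation and 1.43 with cells without division by length, and by 1.73 and 1.82 with principal transcripts. Leaving out each library gave 0.872 to 0.998, -0.0328 to 0.124 and 0.916 to 1.04 points in the order of the comparisons.

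Ckb in ligation against sham took the opposite sign with DESeq2 size factors (-0.00625), without mitochondrially encoded genes (-0.0149), with GC and length offsets (-0.0457, with the block -0.0449), with 2 groups only (-0.0139), in DESeq2 (-0.00187) and with summed header stems (-0.0321), and at -0.0261 to 0.0326 with a library left out. Ckm in ligation against sham was at 0.117 with library totals, and in ligation with cells against sham at -0.000994 to 0.0442 with a library left out, below 0 without sham replicate 3. Ckmt2 in ligation with cells against ligation was at -0.00892 with library totals and at -0.00722 to 0.0338 with a library left out, below 0 without ligation replicate 3. The cause was not tested.

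No sign of pairing by replicate number was seen, as same-numbered libraries correlated in their deviations by -0.0537 to 0.0586. Such values cannot show that the numbers carry no pairing. With the number as a replicate block, 5134, 1230 and 5511 genes and 5, 2 and 5 members were called. Sums by header stem gave 4571, 1101 and 5409 genes and also 5, 2 and 5 members. Of 480 log2 fold changes of members under alternatives, 446 kept their direction and side of the threshold.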
